A study of Mus musculus with 6 samples.

Results

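The glutathione S-transferases described here are 10 mouse genes, Gstp1 and 9 transferases of other classes or of its own, out of 23886 Ensembl gene identifiers measured. They were chosen by name as a gene family, with Gstp1 put first because it was lower in field-exposed than in untreated cells of these same libraries. The contrast of exposed with untreated cells therefore chose the members, so their values in it are a description, and the counts of members called further on support nothing about them. Poly(A) RNA was sequenced from AML12 cells, a hepatocyte line from the liver of a mouse carrying a human TGF-alpha transgene. Of 6 libraries, 3 are controls without treatment (Control 2, 3 and 4) and 3 are of the same line under a static magnetic field, one that does not change with time (SMF 1, 2 and 3). Both groups are thus the same transgenic line and, as labelled, differ in the field, whose strength and duration the labels leave out. Nothing in the labels says that the libraries came from separate cultures, so p-values measure only the spread between these libraries, which may be technical.

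Glutathione S-transferases join the tripeptide glutathione to electrophilic compounds, which makes these easier to export and less reactive. The soluble enzymes fall into classes named by Greek letters (alpha, mu, pi, theta, omega, zeta and kappa), and a separate family of membrane enzymes, the microsomal transferases, sits in the endoplasmic reticulum and mitochondrial outer membrane. The liver is a main site of this chemistry. Gstp1, the pi class enzyme, also binds the stress kinase JNK and holds it inactive, as shown in mouse cells. Many transferase genes respond to NRF2, which acts through antioxidant response elements, and to AP-1, the family of Jun and Fos proteins.

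Levels are FPKM as the authors deposited them, that is fragments divided by the length of the gene and by the total of the library. Library totals, recovered from the steps in the FPKM values, ran from 15514530 to 18200516 reads, and the totals of the groups overlapped. The hepatocyte keratins Krt8 and Krt18 and the hepatocyte regulator Hnf4a were abundant (means of 1969, 1621 and 91.5 FPKM over the 6 libraries). Alb was at 29.8 FPKM, while Apoa1 was at 0.331 and Apoa2 was at 0 in every library. Of 12 hepatocyte markers, 11 were in the files and 7 reached a mean of 1 FPKM. Of 5 bile duct markers, all 5 were in the files and 3 reached a mean of 1 FPKM. These were Krt19 at 1086 FPKM, Krt7 at 62.2 and Sox9 at 9.27, with Cftr at 0 and Epcam near 0. Summed markers of macrophages (2.99 to 4.33 FPKM over all libraries), of stellate cells and fibroblasts (1.43 to 1.92) and of endothelium (0.053 to 0.169) were low in both groups, with Col1a2 and Dcn at 0.

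The pi genes need their sequences shown first, because what tells Gstp1 apart from its copies decides what its FPKM can hold. Gstp1, Gstp2 and Gstp3 are neighbours on the minus strand of chromosome 19. The stretches below are coding bases 1 to 90 and 268 to 357, counted from the A of the start codon in the GENCODE M21 transcripts (build GRCm38), with capitals where a base differs from Gstp1. They hold all 12 of the positions at which Gstp1 and Gstp2 differ.

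Gstp1 bases 1 to 90: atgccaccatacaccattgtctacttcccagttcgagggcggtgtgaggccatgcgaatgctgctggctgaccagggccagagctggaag
Gstp2 bases 1 to 90: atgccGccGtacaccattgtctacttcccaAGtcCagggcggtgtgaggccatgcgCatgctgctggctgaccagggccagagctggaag
Gstp3 bases 1 to 90: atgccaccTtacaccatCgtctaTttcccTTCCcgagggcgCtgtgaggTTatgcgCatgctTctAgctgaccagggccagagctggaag
Gstp1 bases 268 to 357: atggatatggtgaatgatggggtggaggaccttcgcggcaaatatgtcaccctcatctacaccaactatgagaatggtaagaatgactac
Gstp2 bases 268 to 357: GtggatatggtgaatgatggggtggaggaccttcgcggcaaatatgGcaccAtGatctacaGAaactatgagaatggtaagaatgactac
Gstp3 bases 268 to 357: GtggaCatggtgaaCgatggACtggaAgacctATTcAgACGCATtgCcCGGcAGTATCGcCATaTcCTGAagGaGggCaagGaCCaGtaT

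Over the 633 coding bases, Gstp2 was 98.1% identical to Gstp1 and Gstp3 was 71.6% identical, with 180 positions that differ. In the annotated coding transcripts of Gstp1, 51% of all 50-base windows also occurred in Gstp2, and 37.3% in the pseudogene Gstp-ps. For windows of 100 bases the shares were 38.4% and 21.1%. No window of either length was shared with Gstp3. The treatment of reads matching several places is unstated, so the FPKM of Gstp1 covers an unknown part of the shared stretches, and its level relative to the other classes is uncertain for that reason. Of the other members, Gstm1 shared 19.9% and Gstm2 8.3% of 50-base windows with other genes. Those genes were, for Gstm1, Gstm2, Gstm3, Gstm2-ps1, Gm6665 and Gm8834, and for Gstm2, Gstm1, Gm6665 and Gm12499. Gsta3, Gsta4, Gsto1, Gstt1, Gstp3, Mgst1 and Mgst3 shared none with any other annotated transcript. Gsta3 overlaps the antisense gene Gm28836 and Gsto1 overlaps Cfap43 on the opposite strand, and without strand marking their reads cannot be told apart. Cfap43 itself was at a mean of 0.001 FPKM over all libraries, against 184.5 for Gsto1.

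Gstp1 (ENSMUSG00000060803) was lower in the exposed cells. It measured 48.4, 47.9 and 53.3 FPKM in Control 2, 3 and 4, and 37.9, 32.2 and 30.9 FPKM in SMF 1, 2 and 3. Every SMF library lay below every control, with SMF 1 the nearest to them. Controls averaged 49.9 ± 3.00 FPKM and the exposed cells 33.7 ± 3.71 (SD, n = 3 each, as for every ± here), a ratio of 0.675 and a log2 fold of -0.56 (standard error 0.077) on the log2(FPKM + 1) scale used for all folds here. Behind these values stood 1243, 1350 and 1406 reads in the controls and 910, 862 and 860 in the SMF libraries. Counting error alone gives a coefficient of variation of 2.67% to 3.41% at these reads, against 6.02% between controls and 11% between SMF libraries. The first of these covers counting error only, since reads copied by PCR are not separate molecules. In bulk RNA, fewer cells with the transcript and less of it per cell cannot be told apart.

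No gene passed the test across the whole table. Of the 11114 genes with at least 1 FPKM in at least 3 libraries, limma with Benjamini-Hochberg adjustment called 0 at an adjusted p of 0.05 (0% of genes tested), and 1998 genes (18%) had an unadjusted p under 0.05, 952 of them lower in the exposed cells (8.57%). By limma-voom on the recovered reads, 510 genes (4.59%) were called, 268 of them lower in the SMF libraries (2.41%). Of the 10 members, 9 were tested and Gstt1 was below the filter. Limma called 0 of these 9, and limma-voom called 1, Gstp1. Gstp1 was also the only member whose groups did not overlap, where 12.7% of all genes tested had every SMF library below every control and 11% had every SMF library above (23.7% in either direction). Since the contrast chose the members, nothing is read from these counts.

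**Figure D1:**
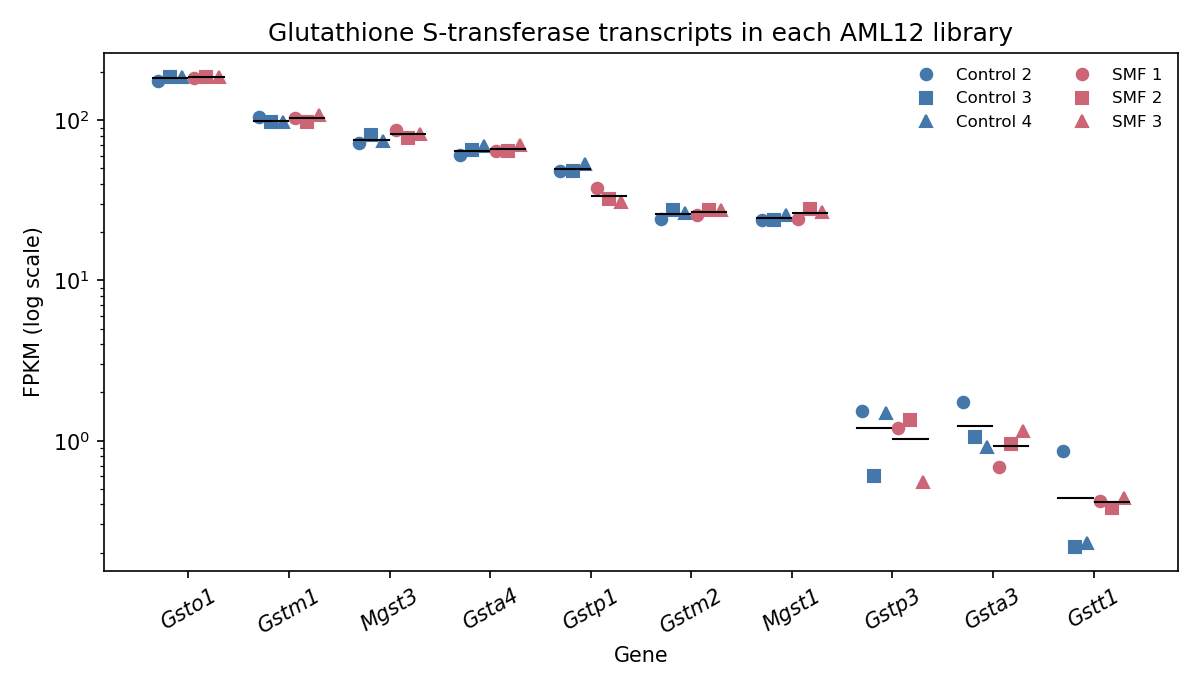
FPKM of the 10 transferase genes (log axis) in the 3 Control (blue) and 3 SMF (red) libraries, ordered by mean level, with black lines at group means. Gstp1 shows separate groups (47.9 to 53.3 against 30.9 to 37.9 FPKM), while the groups of every other member overlap.

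The folds of all genes give the scale of these differences. The middle 95% of log2 folds over all genes tested ran from -0.25 to 0.29 with a median of -0.01, and 45 genes (0.405%) had a fold at or below that of Gstp1. As Gstp1 was put first for being lower in these libraries, its place among them is a description.

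**Figure D2:**
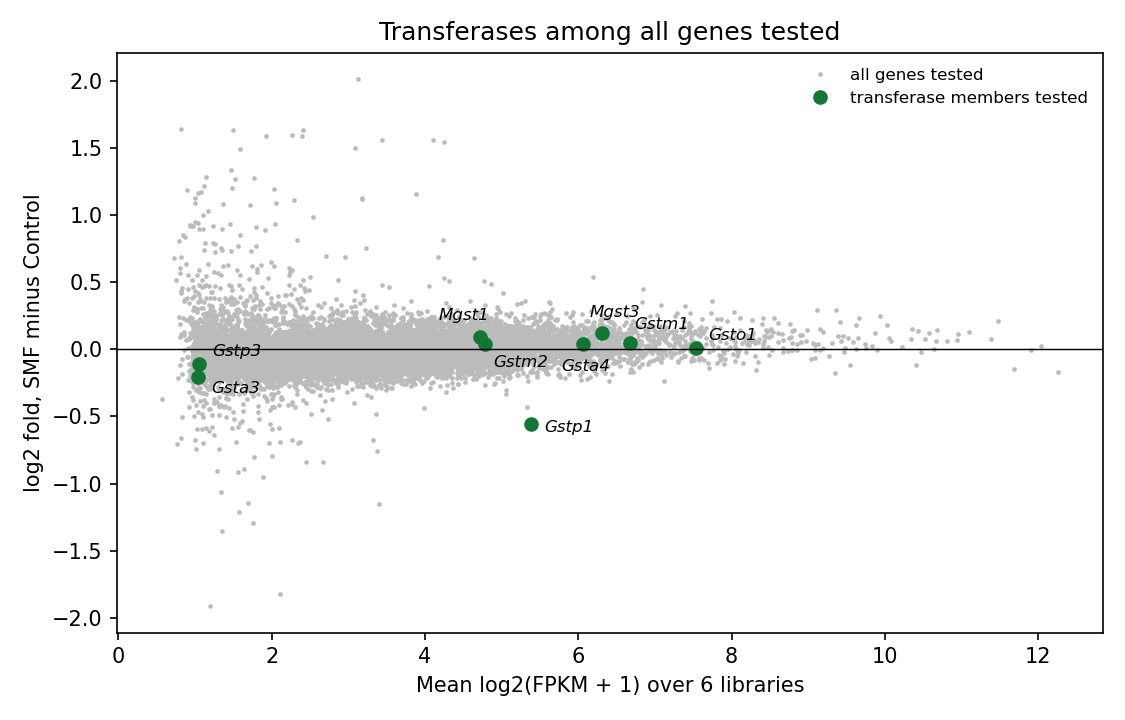
Log2 fold (SMF minus Control) against mean log2(FPKM + 1) for the 11114 genes tested (grey) and the 9 tested transferases (green). Gstp1 lies at -0.56, and the 6 other members above 20 FPKM lie between 0.01 and 0.12.

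The alpha class held one abundant and one scarce member. Gsta4 (ENSMUSG00000032348), which conjugates 4-hydroxynonenal and other products of lipid peroxidation, was at 60.5, 64.8 and 69.0 FPKM in Control 2, 3 and 4 and at 64.5, 64.6 and 70.3 in SMF 1, 2 and 3. Its groups overlapped and its log2 fold was 0.04 (standard error 0.056). Gsta3 (ENSMUSG00000025934), which in mice conjugates the epoxide of aflatoxin B1, measured 1.75, 1.05 and 0.919 FPKM in untreated and 0.683, 0.959 and 1.15 in exposed cells. It rested on 46 to 126 reads, its groups overlapped, and its log2 fold was -0.20 (standard error 0.17). That fold was -0.05 without Control 2, -0.11 without SMF 1 and -0.30 without Control 4, so its size rests on single libraries.

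Mu class transferases, which act on epoxides and quinones, did not separate the groups either. Gstm1 (ENSMUSG00000058135) measured 104.1, 97.5 and 97.1 FPKM in untreated and 102.7, 97.4 and 108.4 in exposed cells, a log2 fold of 0.05 (standard error 0.048). Gstm2 (ENSMUSG00000040562) was at 24.2, 27.7 and 26.5 FPKM in untreated and 25.4, 27.7 and 27.6 in exposed cells, a log2 fold of 0.04 (standard error 0.058). The groups overlapped for both genes, although each had its highest value in an SMF library (SMF 3 for Gstm1, SMF 2 for Gstm2) and its lowest in a control (Control 4 and Control 2).

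Gsto1 (ENSMUSG00000025068), the omega class enzyme that reduces dehydroascorbate and removes glutathione from proteins, was the most abundant member. It stood at 176.8, 187.4 and 187.1 FPKM in untreated and at 183.7, 185.1 and 186.7 in exposed cells, with 5766 to 6899 reads a library. The 3 SMF libraries lay inside the range of the controls, and the log2 fold was 0.01 (standard error 0.035). The fold of Gsto1 was below 0 after rescaling to TPM, quantile normalization or the GC content and length correction, and without Control 2. Those of Gsta4 (4 of 17 alternatives), Gstm1 (2 of 17) and Gstm2 (2 of 17) also turned below 0, so no direction is given for these genes.

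The microsomal enzymes had the largest positive folds among the members, still with overlapping groups. Mgst3 (ENSMUSG00000026688), a membrane transferase with peroxidase activity, was at 71.7, 80.4 and 74.5 FPKM in Control 2, 3 and 4 and at 86.7, 77.7 and 82.0 in SMF 1, 2 and 3. Control 3 lay above SMF 2, and the log2 fold was 0.12 (standard error 0.055). Mgst1 (ENSMUSG00000008540), which conjugates and also reduces lipid hydroperoxides, measured 23.8, 23.8 and 25.7 FPKM in untreated and 24.2, 27.8 and 26.6 in exposed cells, a log2 fold of 0.10 (standard error 0.058). Both folds stayed above 0 in all 17 alternatives, from 0.05 to 0.18 for Mgst1 and from 0.04 to 0.17 for Mgst3.

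At the low end, Gstt1 (ENSMUSG00000001663), a theta class enzyme that acts on small halogenated compounds, was at 0.867, 0.216 and 0.231 FPKM in untreated and at 0.422, 0.379 and 0.437 in exposed cells. With 6 to 22 reads a library it entered no test, and Control 2 alone lay above the rest. Gstp3 (ENSMUSG00000058216), the more distant pi gene, was at 1.53, 0.605 and 1.49 FPKM in untreated and 1.21, 1.34 and 0.552 in exposed cells, from 9 to 23 reads. Its log2 fold of -0.11 had a standard error of 0.22 and ran from -0.33 without Control 3 to 0.07 without SMF 3, so its few reads give it no direction.

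Gstp2 (ENSMUSG00000038155), the nearest copy of Gstp1, measured 0.108, 0.395 and 0.528 FPKM in untreated and 0.232, 0.26 and 0.2 in exposed cells, from 2 to 10 reads. Gstp-ps measured 1.32 ± 0.31 FPKM in untreated and 1.34 ± 0.117 in exposed cells. Summed, the reads given to both copies came to between 14 and 28 in a library, against 860 to 1406 for Gstp1. Of the 50-base windows of Gstp2, 50.4% also occurred in Gstp1 or Gstp-ps, so its reads are uncertain for the reason given for Gstp1. The summed level of Gstp1, Gstp2 and Gstp3 was 51.4 ± 3.44 FPKM in untreated and 34.9 ± 3.95 in exposed cells.

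By level, the order over the 6 libraries was Gsto1, Gstm1, Mgst3, Gsta4, Gstp1, Gstm2, Mgst1, Gstp3, Gsta3 and Gstt1. From Gsto1 down to Gstm2, each gene was above the next in 6 of 6 libraries with no overlap in range. Gstm2 and Mgst1 overlapped, with Gstm2 higher in 5 of 6, and both lay above Gstp3 throughout. Gstp3 and Gsta3 could not be ordered, each being higher in 3 libraries. Gsta3 was above Gstt1 in all 6, although their ranges met. Gstp1 kept its place between Gsta4 and Gstm2 in both groups, its lowest SMF library (30.9 FPKM) lying above the highest value of Gstm2 (27.7).

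Setting Gstp1 against each other member inside the same library takes out differences in library scaling where FPKM is far above the 1 that is added. For scarce members the ratio still depends in part on the scaling. On TPM the SMF minus Control difference was -0.27 against Gsta3 and -0.41 against Gstp3, where it was -0.35 and -0.45 as reported. The log2 ratio of Gstp1 to Gstm2 was 0.97, 0.77 and 0.98 in Control 2, 3 and 4, and 0.56, 0.21 and 0.16 in SMF 1, 2 and 3. Relative to Mgst3 it was -0.56, -0.74 and -0.47 in untreated and -1.17, -1.24 and -1.38 in exposed cells, so Gstp1 was below Mgst3 throughout and farther below it under the field. Against each of the 6 other members above 10 FPKM the groups did not overlap, and the ratio was lower in exposed cells by a log2 difference that ran from -0.68 for Mgst3 to -0.57 for Gsto1. Against the scarce Gstp3, Gsta3 and Gstt1 the differences were -0.45, -0.35 and -0.56, with overlapping groups. The difference against Gstp3 was -0.26 without Control 3. Against Gsta3 it was -0.20 without Control 4, -0.22 without SMF 3 or with a pseudocount of 0.1, -0.53 without Control 2 and -0.54 without SMF 1. As Gstp1 enters every ratio, these are not separate results.

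**Figure D3:**
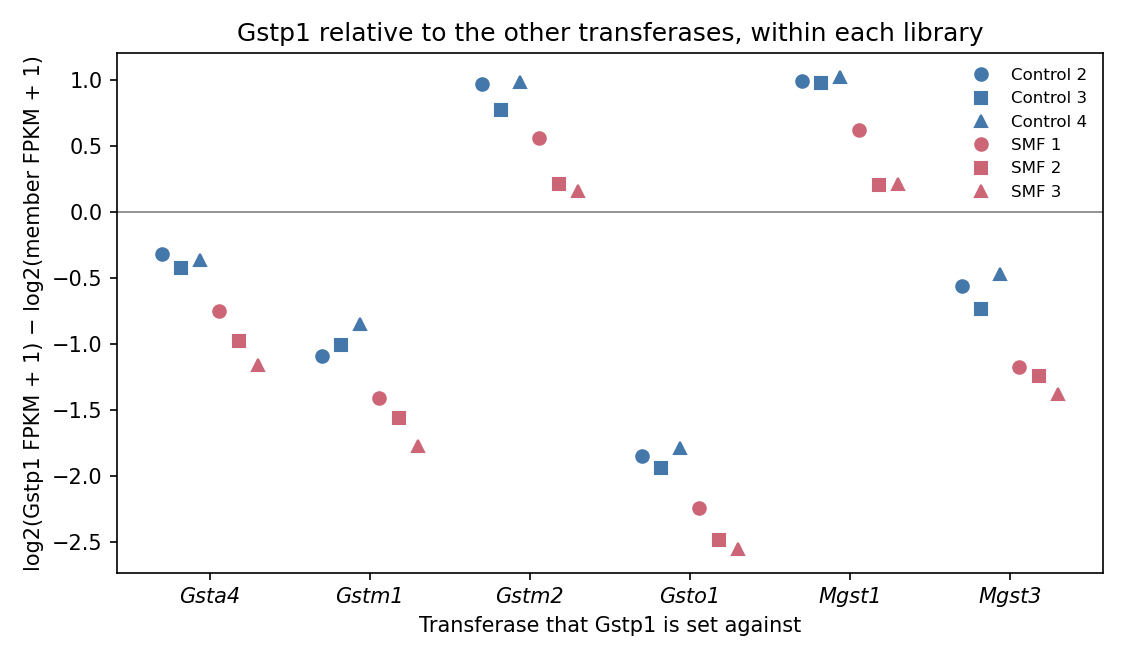
Log2(FPKM + 1) of Gstp1 minus that of each of the 6 other members above 10 FPKM, within each Control (blue) and SMF (red) library. The SMF points lie below all Control points for each member, by group means that differ from -0.57 (Gsto1) to -0.68 (Mgst3).

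The summed level of the family was close in both groups, with Gstp1 lower in the exposed cells and overlapping groups for the sum of the other genes. Over 25 genes of all classes the sum was 560.4 ± 11.6 FPKM in untreated and 558.4 ± 9.41 in exposed cells. Omega transferases held 33% of the sum in untreated and 33.4% in exposed cells, and the mu class held 22.7% and 23.5%. The pi class share was 9.13%, 8.68% and 9.71% in Control 2, 3 and 4 and 7.03%, 6.17% and 5.58% in SMF 1, 2 and 3, with no overlap. Microsomal transferases took 20%, 20.8% and 20% in the controls and 22.3%, 21.6% and 21.3% in SMF 1, 2 and 3. Here too the groups did not overlap, nor did the summed microsomal FPKM (109.4 to 117.0 in controls, 118.4 to 124.6 in SMF libraries). The groups of Mgst1, Mgst2 and Mgst3 each overlapped, and Mgst2 had the lower mean in exposed cells (13.5 against 12.9 FPKM). Among all genes tested, 11% had every SMF library above every control, and 23.7% did not overlap in either direction. Shares are parts of one whole, so a lower pi share raises the combined share of the other classes by arithmetic. The alpha class held 11.8% and 12.1%. Without Gstp1 the sum was 510.5 ± 9.87 FPKM in untreated and 524.8 ± 10.3 in exposed cells. These groups overlapped, SMF 2 (516.3 FPKM) lying below Control 4 (516.5 FPKM).

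**Figure D4:**
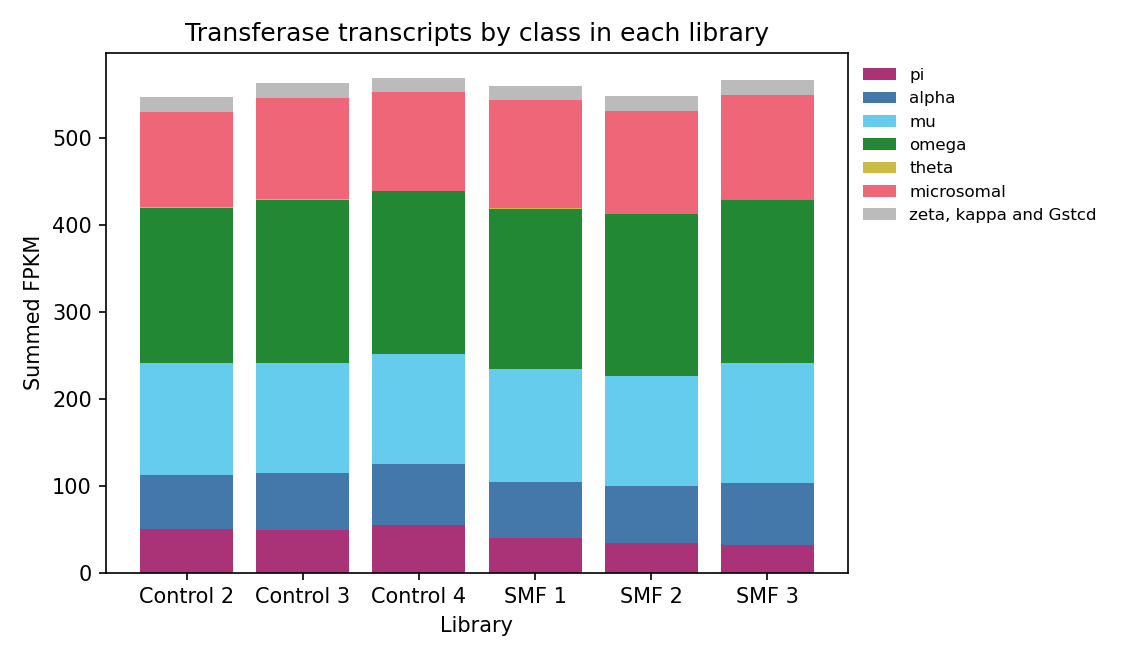
Summed FPKM of 25 transferase genes by class in each library, with bars starting at 0. The pi class (bottom) is 48.9 to 55.3 FPKM in untreated and 31.7 to 39.3 in exposed cells, while the total stays between 547.5 and 569.8, and the theta class is too low to see.

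None of the 5 genes around Gstp1 on the chromosome that are reported here, beside Gstp3, had a fold near its own (-0.02 for Acy3 to 0.12 for Cdk2ap2). Ndufv1, a complex I subunit and the next gene on one side, was at 102.1 ± 4.65 FPKM in untreated and 106.8 ± 4.87 in exposed cells (limma adjusted p = 0.485). Past Gstp2 and Gstp3 on the other side, Cdk2ap2, an inhibitor of the kinase CDK2, was at 60.9 ± 3.44 and 66.5 ± 4.7 (adjusted p = 0.317). Of the neighbours Acy3, Doc2g, Ndufv1, Cdk2ap2 and Pitpnm1, limma called none, and limma-voom called none (adjusted p = 0.216 to 0.971). These neighbours were chosen after the member values were seen.

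The promoters were searched for sites of NRF2 and AP-1, and for a GC box and a TATA-like box. The search covered 250 bases before and 50 after each start site (RefSeq, build GRCm38.p6), on both strands. Promoters of 9 of the 10 members were in that table. The AP-1 site TGANTCA was in 1 of the 9, that of Gstp1, and in 7.8% of 32851 promoters. Counted by gene, as the members are, it was in 9.0% of 27025 genes. Gstp2 carries the same letters, as the 30-base windows around the site show, with the match in capitals.

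Gstp1, chr19:4037968-4037997, minus strand: ctccaacgtgtTGAGTCAgcatccggggcg
Gstp2, chr19:4042292-4042321, minus strand: ctccaacgtgtTGAGTCAgcatccggggcg

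Both windows are identical, and whether the site acts on either gene was not tested. The antioxidant response element core TGACNNNGC was in the promoters of Gsta3 and Mgst1 and in 12.4% of all promoters (14.0% of genes). The letters TGAGTCAgc in the Gstp1 window differ from this core only by a G in place of its C. The strict search therefore does not show that Gstp1 lacks a site of this kind. The GC box GGGCGG was in 5 of the 9 (Gstp1, Gstp3, Gsto1, Mgst1 and Mgst3) and in 35.7% of all promoters (38.2% of genes). The TATA-like box TATAAG was in 2 of the 9 (Gstp1 and Gstp3) and in 7.4% of all promoters (8.6% of genes). A match is a run of letters, and a promoter without one may hold a site elsewhere or in other letters.

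The other genes of glutathione use gave no call by limma. Of 104 genes in 6 lists, 98 were in the files and 68 were tested. Of these 68, 41 had a fold above 0 and 27 below, where the median log2 fold over all genes tested was -0.01. Limma called 0 of them, and 13 had an unadjusted p under 0.05 (18% over all genes). By limma-voom 2 were called, both higher (2.18% over all genes were called higher), namely Gpx4 and Junb.

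Among other transferases, 6 of 18 were tested, with a median log2 fold of 0.03 (-0.01 over all genes). Mgst2, a microsomal enzyme that makes leukotriene C4, was at 13.5 ± 0.595 FPKM in untreated and 12.9 ± 0.667 in exposed cells (limma adjusted p = 0.605). Ltc4s, the leukotriene C4 synthase, was at 7.43 ± 0.398 and 8.36 ± 0.495 (limma adjusted p = 0.253). Of glutathione synthesis and turnover genes, 5 of the 10 tested were above 0 and 5 below (median -0.01). Slc3a2, the heavy chain of the cystine transporter, was at 162.6 ± 3.89 and 170.4 ± 7.87 FPKM (limma adjusted p = 0.421). Gclc, the catalytic subunit of the rate-limiting enzyme of glutathione synthesis, was at 50.4 ± 0.828 and 50.7 ± 1.23, with a log2 fold of 0.01 (standard error 0.036).

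Of glutathione redox enzymes, 8 of 10 tested had a fold above 0 (median 0.03). Gpx4, which reduces lipid hydroperoxides with glutathione, was at 214.3 ± 8.74 FPKM in untreated and 251.5 ± 16.7 in exposed cells, a log2 fold of 0.23 (limma adjusted p = 0.158, limma-voom adjusted p = 0.0066). Gsr, glutathione reductase, was at 115.5 ± 3.77 and 117.7 ± 4.93 (limma adjusted p = 0.764). For export of conjugates and the steps to mercapturates, 6 of 12 tested were above 0 (median 0.00). Abcc3, a conjugate exporter, was at 92.3 ± 2.3 and 91.7 ± 0.805 FPKM, and Lap3, a cytosolic aminopeptidase, at 33.3 ± 0.308 and 31.8 ± 1.03 (limma adjusted p = 0.908 and 0.384).

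Of NRF2 and AP-1 regulators, 8 of 14 tested were above 0 (median 0.02). Junb was at 165.5 ± 3.79 FPKM in untreated and 182.6 ± 9.02 in exposed cells (limma adjusted p = 0.186, limma-voom adjusted p = 0.048). Jund was at 189.1 ± 5.42 and 208.6 ± 14.6 (0.236 by limma and 0.0751 by limma-voom, both adjusted). Among other conjugating and detoxifying enzymes, 10 of 16 tested were above 0 (median 0.01). Akr1a1, an aldehyde reductase, was at 196.9 ± 7.69 and 209.0 ± 9.22 FPKM, and Ephx1, the microsomal epoxide hydrolase, at 90.5 ± 1.59 and 95.8 ± 1.4 (limma adjusted p = 0.354 and 0.25).

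Genes that followed Gstp1 most closely across the 6 libraries were sought by the root mean square distance between log2(FPKM + 1) profiles, each centred on its own mean. This distance includes the group difference that put Gstp1 first. Genes with a like fold therefore come out near and genes with a fold near 0 come out far, so distances and ranks are a description. The nearest was Depdc1a, a gene expressed in dividing cells, at a distance of 0.104, with 5.29 ± 0.66 FPKM in untreated and 3.75 ± 0.357 in exposed cells. Zfp763, a zinc finger gene, was next at 0.117 (1.93 ± 0.049 and 1.2 ± 0.039 FPKM), then Arrdc3, an alpha-arrestin, at 0.121 (3.28 ± 0.147 and 1.99 ± 0.116). Cyp2d26, a cytochrome P450, and Itgb7, an integrin subunit, followed at 0.128 and 0.144. All 5 are far less abundant than Gstp1, and their log2 folds ran from -0.52 (Arrdc3) to -0.32 (Itgb7). The 8 other tested transferases lay at distances of 0.302 to 0.355, with ranks from 5499 to 9007 among the genes tested, Gsto1 the nearest.

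**Figure D5:**
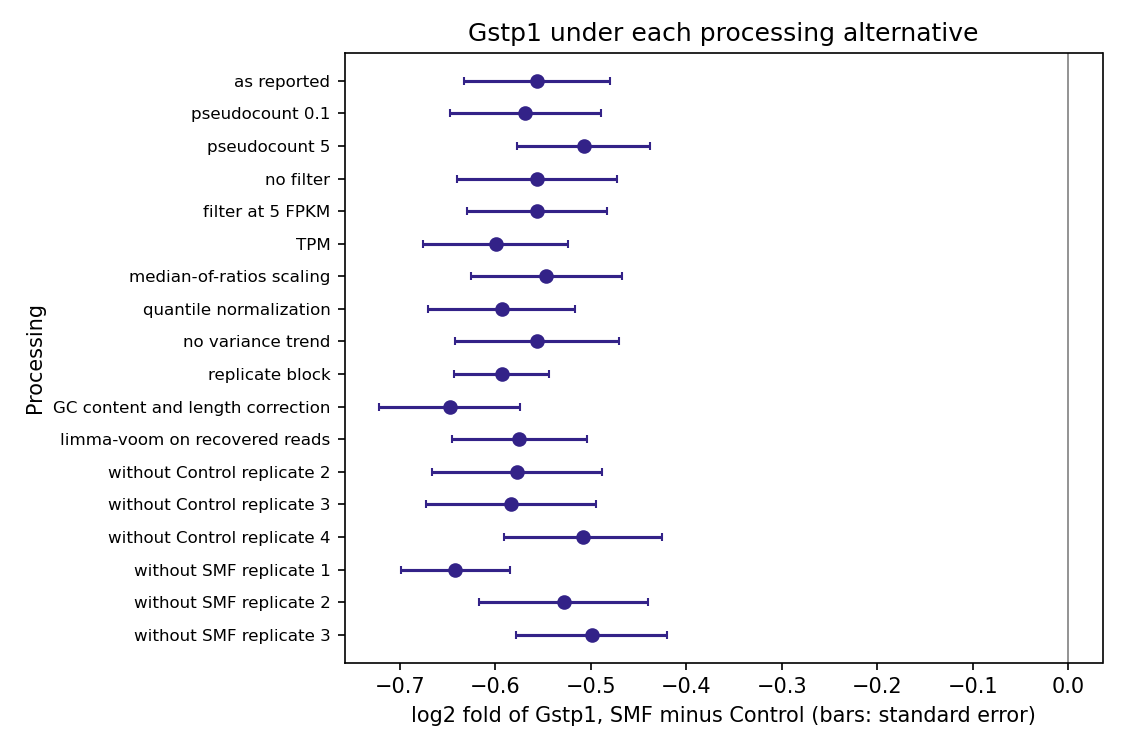
Log2 fold of Gstp1 (SMF minus Control) as reported and under 17 processing alternatives, with bars of 1 standard error. All points lie between -0.65 (GC content and length correction) and -0.50 (without SMF 3).

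Across these alternatives the fold of Gstp1 kept its direction, and its size changed with the setting. Correcting each library for GC content and gene length took the fold of Gstp1, a gene of 1548 exon bases, from -0.56 to -0.65. Leaving out SMF 1, the exposed library nearest the controls, gave -0.64, and leaving out SMF 3 gave -0.50.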

How the data were processed

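The authors deposited FPKM values, 1 file per library, for 23886 Ensembl genes. Per the submitters' processing notes, the build was GRCm39; the tools listed, without roles, are Bowtie2 2.2.3 and HISAT2 2.1.0. No counting tool is named there. Symbols came from GENCODE M21 (23521 genes matched), which is on GRCm38 and served for names, lengths, GC content and transcript sequence. No strand marking is stated, so overlapping antisense reads cannot be told apart.

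FPKM values of all 22004 genes above 0 came out as whole reads within 0.02. For 96.94% of genes this was at the M21 exon length, and for the other 674 at a length searched for that purpose. That search cannot fail for genes above 0 in a single library, and a length can fit by chance for genes above 0 in few libraries.

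Folds come from limma 3.58.1 (R 4.3.3), fitted to log2(FPKM + 1) of 3 against 3 libraries, with a variance trend, for genes at 1 FPKM or more in at least 3 libraries, two-sided, with Benjamini-Hochberg adjustment at 0.05. This filter gave 11114 genes. Alternatives were other pseudocounts, filters, scalings and variance models, a replicate block, a loess correction for GC content and length (span 0.3), limma-voom on recovered reads, and leaving out each library. limma was tested on simulated data. The members and lists were chosen with earlier results of these data known. All 10 members are named; each list gives its called genes or its 2 most abundant. The 5 genes most like Gstp1 were taken among symbols that are no clone or predicted name. Figures used matplotlib 3.10.9.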

Additional observations from a re-analysis of the deposited data

How the results depend on the processing

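The log2 fold of Gstp1 kept its sign in all 17 alternatives (-0.65 to -0.50, and -0.64 to -0.50 when 1 library was left out). Whether any gene passed the threshold did depend on the setting. Limma called 0 genes as reported, and 8 with the filter at 5 FPKM (6 higher, 2 lower), where 7482 genes were tested. With 1 library left out it called 0 to 3 genes (0 to 2 higher, 0 to 1 lower). Limma-voom called 510 (242 higher, 268 lower), and the cause of that difference was not tested. Medians of the gene lists also depended on the setting. That of glutathione redox enzymes ran from -0.01 to 0.07, and that of other conjugating and detoxifying enzymes from -0.02 to 0.06. Both were below 0 on TPM, where the median over all genes was -0.04, so their signs are not read as a direction.

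With replicate number as a block, limma called 19 genes (13 higher, 6 lower), and the fold of Gstp1 was -0.59. Only numbers 2 and 3 occur in both groups, so the fold and the calls of this fit rest on the libraries with those numbers. The remaining library of each group stands alone in its block. The deviations of same-numbered libraries correlated at 0.058 and 0.046, where pairs with different numbers ran from -0.148 to 0.107. Deviations from a mean of 3 libraries are tied to each other, so these values cannot decide whether same-numbered libraries were paired. The groups hold 3 libraries each, and genes with few reads (Gstp2, Gstp3, Gsta3, Gstt1) limit what can be seen in their classes.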
